A study of Rattus norvegicus with 12 samples.

Results

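The genes of neurotransmitter receptors were examined in mixed glial cultures from newborn rat brain that had been exposed to mixtures of cytokines. Members were taken by name: every probe set whose single platform symbol begins with Gria, Grik, Grin, Grm, Gabr, Glra, Chrn, Chrm, Adra, Adrb, Htr or Drd. This gave 132 probe sets of 87 genes among the 8740 probe sets tested. One of the 87, Grina, shares its first letters with the NMDA receptor genes but is not a receptor subunit gene, which leaves 86 receptor genes. The rule itself used no measured value, although earlier results of these data were known when it was set. Where a gene had several probe sets, as 33 genes did, the one with the highest mean log2 signal over all arrays stands for the gene unless stated otherwise.

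Each of 3 experiments comprised 4 cultures, and each culture was measured on 1 Affymetrix rat expression array, so that there were 12 arrays and 3 per group. All cultures shared a defined medium to which 2% fetal bovine serum was added. Control cultures received no cytokine. Per the labels, the Th1 mixture held rat IL-2, interferon-γ, TNF-α and G-CSF, the monocyte/macrophage (M/M) mixture held rat IL-1α, IL-1β, IL-12p40 and TNF-α, and the Th2 mixture held rat IL-5, IL-10 and G-CSF with porcine TGF-β1, each cytokine at 10 ng/ml for 6 hours. The study's methods add IL-6 to the M/M mixture and IL-4 to the Th2 mixture, and the labels do not list these. TNF-α was shared by the Th1 and M/M mixtures and G-CSF by the Th1 and Th2 mixtures. The comparison with control asks which receptor messages differ early after each mixture is added.

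Neurotransmitter receptors fall into a pair of broad kinds. Ligand-gated ion channels, such as the AMPA, kainate and NMDA glutamate receptors, the GABA-A and glycine receptors and the nicotinic acetylcholine receptors, are assembled from several subunits, each with its own gene. G protein-coupled receptors, such as the metabotropic glutamate, muscarinic, adrenergic, dopamine and most serotonin receptors, are single chains that act through second messengers. Both kinds are best known in neurons, but astrocytes and cells of the oligodendrocyte lineage carry glutamate, GABA and adrenergic receptors as well. In RNA from a whole culture, fewer cells of a type and less RNA per cell cannot be told apart.

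The arrays were not alike in ways that bear on every difference below. The median signal of an array was between 56.1 and 61 in 7 of the 8 arrays of experiments 1 and 2 and was 38.4 in the control of experiment 2, while the arrays of experiment 3 lay between 24.5 and 42.2. Values of experiment 3 are given to 1 decimal and reach down to between 0 and 0.1, whereas those of the other experiments are given to 2 decimals with 200 to 249 probe sets at exactly 1 per array and 0 to 3 below it. The control of experiment 2 correlated with the treated arrays of its own experiment at 0.936 to 0.944 over log2 signals, below the 0.963 to 0.968 of the control of experiment 1 with those same arrays. It was the lowest of the 8 arrays of experiments 1 and 2 for 49.5% of all probe sets and for 27 of the 87 genes, and the highest for 12% of all probe sets and for 16 of the genes, among them Drd3, Htr6, Htr7, Grin1, Grin2d, Grm7 and Grina. Every treated array was compared within its own experiment, so the control of experiment 2 enters every difference of that experiment. For Drd3, Grin1, Grin3a, Htr6 and Htr7 the value without the control of experiment 2 is also given.

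Without added cytokines most receptor probe sets were dim. Only 10 of the 87 genes (11.5%) lay above the median signal of their array in 3 of 3 control arrays, against 40.2% of all probe sets, and 53 genes lay below it in all 3, against 40.5%. Signal was under 100 in all 12 arrays for 75 genes and under 10 for 8 of these, while 2 genes, Drd3 and Grina, exceeded 100 in all 12. The shares of all probe sets at these cuts were not counted, and the median of every array was itself under 100. The lowest 25% of the array held 14 genes in all 3 controls, which is 16.1% of them against 14.2% of all probe sets. The files used here hold no detection calls, so a low signal does not say that a message was absent. Because probe sets differ in how strongly they bind, signals of different genes do not rank their messages.

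The 10 genes above the array median in every control belonged to several receptor families. They were Grik4 and Grik5, subunits of kainate receptors that bind glutamate tightly, Grin2b, a glutamate-binding NMDA subunit, Gabrg1, a GABA-A subunit, Htr3a, the serotonin-gated ion channel, Chrm4, a muscarinic receptor, Chrng, the fetal subunit of the muscle nicotinic receptor, the dopamine receptors Drd3 and Drd5, and Grina. No AMPA, glycine, metabotropic glutamate or adrenergic receptor gene was among them. For some of the 10 the other probe sets did not share this brightness. Drd3, Chrm4, Htr3a and Grik4 each also had a dim probe set, with mean control signals of 2.56, 1.56, 4.16 and 5.52. Their highest probe sets averaged 457, 99.6, 56.3 and 58.7. Both probe sets of Grina were bright, at 837 and 1107.

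Drd3, a dopamine receptor that lowers cyclic AMP, had control signals of 248, 813 and 312 in experiments 1, 2 and 3. After Th1 cytokines its signals were 263, 269 and 197, after M/M cytokines 235, 257 and 450.3, and after Th2 cytokines 251, 482 and 299.7. The control of experiment 2 was thus the highest of the 12 and about 3 times the signal of its Th1 and M/M partners, while experiment 1 was nearly level. The log2 differences from control of −0.72 (Th1), −0.40 (M/M) and −0.26 (Th2), each with an SE of 0.35, became −0.28, 0.03 and 0.17 without that control array, and none passed limma's test.

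Grik5 gave 410.2, 407 and 80.3 in the controls. Its signals were 429, 329 and 114.5 after Th1, 372, 302 and 182.7 after M/M, and 352, 349 and 89.5 after Th2 cytokines. Experiment 3 was the lowest in each group, and the groups overlapped. Grin2b gave 174, 116 and 58.7 in the controls, 195, 195 and 27.2 after Th1, 188, 206 and 78.0 after M/M, and 159, 157 and 33.1 after Th2 cytokines. In all 3 experiments its M/M signal was above the control signal, whereas after Th1 and Th2 cytokines experiments 2 and 3 went opposite ways.

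Chrng showed the narrowest spread of the bright genes. Its control signals were 86.5, 60.3 and 79.5, and those after M/M cytokines 90.8, 100.4 and 105.3, all above every control. Those after Th1 and Th2 cytokines lay between 71.2 and 87.2. How many of all probe sets had groups without overlap was not counted. A lack of overlap, here or below, is therefore a description and no evidence of a change. The M/M difference of 0.40 log2 units (SE 0.26) turned to −0.02 once each array was centred on its own median and to −0.01 after quantile normalization. Gabrg1, Grik4, Htr3a and Drd5 behaved alike after M/M cytokines, with log2 differences of 0.47, 0.30, 0.56 and 0.60, higher in 3 of 3 experiments. After centring these came to 0.04, −0.13, 0.13 and 0.17. Chrm4 gave 130, 135 and 34.3 in the controls against 114, 93.7 and 31.3 after Th2 cytokines, lower in 3 of 3 experiments at −0.28 (SE 0.29).

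**Figure D1:**
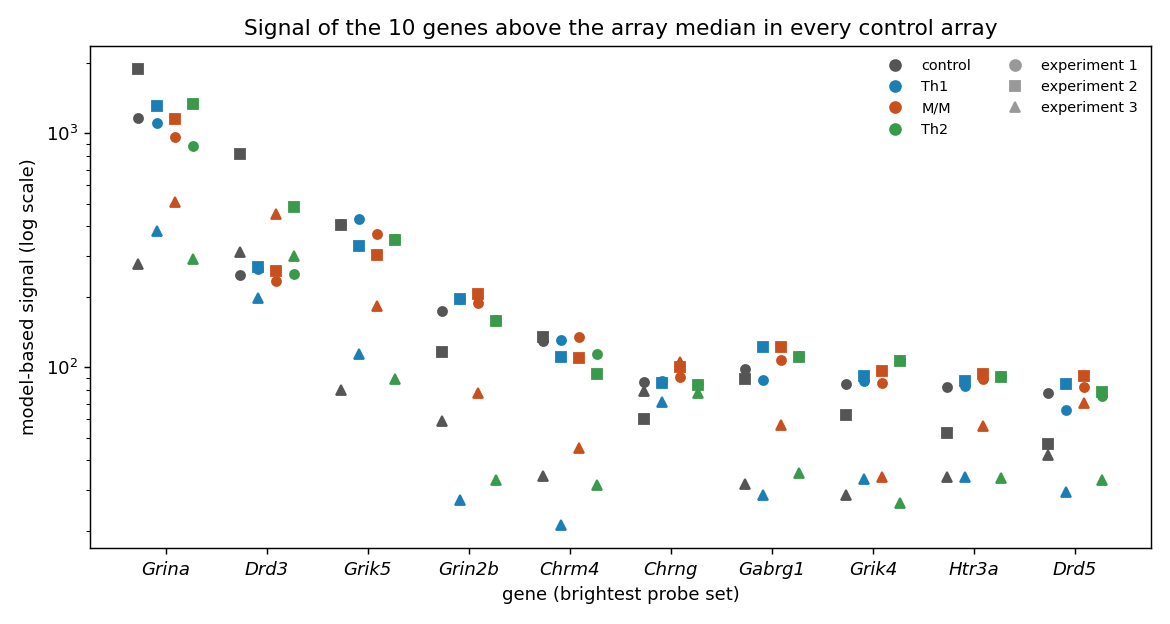
Signal on a log axis of the 10 genes that lay above the array median in all 3 control arrays, by group (color) and experiment (marker shape). Experiment 3 (triangles) is low for most genes in every group, and the control of experiment 2 (grey square) stands above the other arrays for Grina and Drd3, where it reached 1887 and 813.

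None of the 132 probe sets passed the test across all probe sets (limma, Benjamini-Hochberg adjusted p under 0.05) after Th1, M/M or Th2 cytokines. The background was low: 0% of all probe sets were called after Th1, 0.263% after M/M and 0.0114% after Th2 cytokines. The lowest adjusted p of any of the 132 in limma was 0.857 after Th1, 0.222 after M/M and 0.715 after Th2 cytokines. At an unadjusted p under 0.05 there were 2, 7 and 5 of the 132 probe sets (1.52%, 5.3% and 3.79%), against 5.56%, 15.9% and 6.75% of all probe sets. The SE of a gene's log2 difference had a median of 0.45 and ran from 0.25 to 0.93, so that the 95% interval stayed inside a 2-fold change in either direction for 19 genes after Th1, 13 after M/M and 19 after Th2 cytokines. For the others the interval reached a 2-fold difference in at least 1 direction.

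After Th1 cytokines the median log2 difference of the receptor genes from control was −0.03, with 41 of 87 above 0, beside a median of 0.14 over all probe sets. With each array centred on its median it was −0.19 with 29 of 87 above 0, beside −0.02 over all probe sets, and after quantile normalization it was −0.15 with 30 of 87 above 0. The same direction in 3 of 3 experiments was seen for 7 genes upward (8.05%, against 14% of all probe sets) and 10 downward (11.5%, against 5.72%). The 7 higher genes were Grm6, Chrnb2, Gabrg3, Gabrr1, Drd1, Chrm1 and Grik4. The 10 lower genes were Htr7, Htr6, Gabrr3, Grm7, Grin1, Grm4, Gabrp, Htr5a, Gria1 and Htr1a. Within experiments the median was 0.01, 0.25 and −0.36, and without the control of experiment 2 it was −0.12 overall. Chrng, Drd5, Gabrg1 and Grik5 changed sign under another scaling of the arrays, as did 12 of the 87 genes in all.

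After M/M cytokines most receptor genes had a higher signal, as did most probe sets on the array. The median log2 difference was 0.32, with 68 of 87 genes above 0, beside 0.33 over all probe sets. Higher signal in 3 of 3 experiments was found for 29 genes (33.3%, against 32% of all probe sets) and lower signal for 4 (4.6%, against 3.66%), which were Htr7, Htr2a, Gria1 and Grin1. Within experiments the median was 0.06, 0.36 and 0.51. It was −0.11 with each array centred on its median and −0.03 after quantile normalization, and 29 of the 87 genes changed sign under one or the other, including Chrm4, Chrna9, Chrng, Gabrg3, Gabrr3, Glra2, Grik4, Grik5, Grm7, Grm8 and Htr5a.

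After Th2 cytokines the median log2 difference was 0.08, with 50 of 87 genes above 0, beside 0.19 over all probe sets. Signal was higher in 3 of 3 experiments for 14 genes (16.1%, against 25% of all probe sets) and lower for 9 (10.3%, against 6.46%). The 9 lower genes were Chrm2, Gria1, Htr7, Htr6, Grm7, Htr5a, Chrnb4, Chrm4 and Adra2a. Within experiments the median was 0.03, 0.28 and −0.04, and it was −0.13 with centred arrays and −0.18 after quantile normalization. Chrm1, Chrnb2, Chrng, Drd5 and Gabrg3 were among the 15 genes that changed sign under either scaling. Since all 3 comparisons use the same control arrays, the 3 differences of a gene are not independent of each other.

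**Figure D2:**
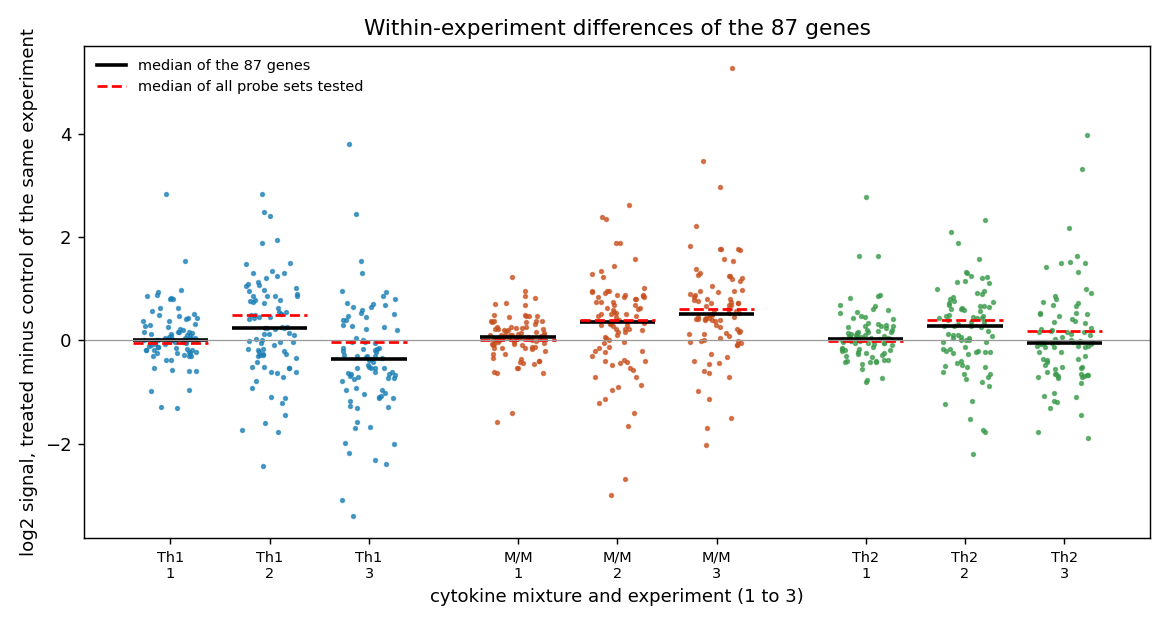
Log2 signal of each treated array minus the control of the same experiment for the 87 genes, 1 point per gene, by mixture and experiment, with the median of the 87 genes (black line) and of all probe sets tested (red dashed line). In experiment 1 both medians are near 0 for every mixture and most points lie within 1 unit of 0, with Adra2c the highest at 2.82 after Th1 and 2.78 after Th2 cytokines, whereas in experiments 2 and 3 they spread more widely and the median of the genes ranges from −0.36 to 0.51.

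Among the ionotropic glutamate receptors, whose opening carries fast excitation, the NMDA subunits had the lowest family median after Th1 and Th2 cytokines. It was −0.41 after Th1, 0.23 after M/M and −0.24 after Th2 cytokines over 6 genes, of which 1, 4 and 1 were above 0. Centred on the array medians, these were −0.57, −0.20 and −0.45, so the sign after M/M cytokines turned. Within experiments the family median was 0.10, −0.42 and −0.92 after Th1 and 0.02, −0.19 and −0.77 after Th2 cytokines. The control of experiment 2 was the highest of the 8 arrays of experiments 1 and 2 for Grin1, Grin2c and Grin2d. After Th1 cytokines other probe sets of these genes reached 0.26, 0.56 and 0.45, while that of Grin2a was at −0.13. Grin1, the subunit that every NMDA receptor requires, gave 50.3, 74.5 and 37.9 in the controls and 46.0, 34.4 and 22.8 after Th1 cytokines, lower in 3 of 3 experiments at −0.66 (SE 0.32). Its M/M signals of 49.4, 53.3 and 36.5 were lower in 3 of 3 by a smaller margin (−0.19), and the Th2 signals of 59.4, 55.0 and 23.2 were lower in 2 of 3. In each comparison the groups overlapped. Without the control of experiment 2 the Grin1 differences were −0.51 (Th1), −0.04 (M/M) and −0.15 (Th2), against −0.30 after Th2 cytokines with it.

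Grin3a, an NMDA subunit that binds glycine, went the other way. Its control signals were 89.0, 37.9 and 28.8, and its M/M signals of 106, 93.0 and 60.1 were higher in 3 of 3 experiments, by 0.87 log2 units (SE 0.31, unadjusted p = 0.014 and adjusted p = 0.231 in limma). After Th2 cytokines it gave 93.7, 83.3 and 39.7, higher in 3 of 3 (0.56), and after Th1 cytokines 81.1, 82.8 and 35.4, higher in 2 of 3 (0.43). Groups overlapped in each case, and the control of experiment 1 was near the treated arrays. The control of experiment 2 was far below its 3 treated partners, and without it the Grin3a differences were 0.59 (M/M), 0.28 (Th2) and 0.15 (Th1). Of the remaining NMDA subunits, Grin2a, Grin2c and Grin2d had log2 differences between −0.88 and 0.55 over the 3 mixtures.

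The AMPA subunits Gria1 to Gria4 had medians of −0.17, 0.04 and 0.14 after Th1, M/M and Th2 cytokines, which were −0.33, −0.39 and −0.07 with centred arrays. Gria1 gave 16.3, 22.0 and 18 in the controls and 9.36, 9.72 and 11.7 after Th2 cytokines, so that every Th2 array lay below every control array. The difference was −0.87 (SE 0.43) and kept its sign under both scalings, at −1.08 and −1.17, but did not pass the test. After Th1 (15.6, 21.5 and 8.5) and M/M cytokines (14.7, 16.8 and 17.6) it was lower in 3 of 3 experiments, with overlapping groups. The other probe sets of Gria1 did not follow it after Th2 cytokines, at 0.20 and 0.42.

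All 5 kainate subunits had a log2 difference above 0 after Th1 cytokines, from 0.09 to 0.92 with a median of 0.23, and 3 and 2 of 5 did after M/M and Th2 cytokines. The Th1 median was 0.07 with centred arrays, where 4 of 5 were above 0, and the M/M median turned from 0.21 to −0.22. Grik4 was higher in 3 of 3 experiments after Th1 and after M/M cytokines, by 0.27 and 0.30 (SE 0.28). Grina, the gene that is no receptor subunit, was bright in every array, with control signals of 1160, 1887 and 275 and differences of −0.04, −0.03 and −0.27.

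The metabotropic glutamate receptors held the gene with the highest log2 difference among those that went one way in all 3 experiments. Grm6, best known from the ON bipolar cells of the retina, gave 13.9, 10.7 and 1.30 in the controls. Its signals were 18.1, 18.4 and 7.10 after Th1, 24.3, 20.5 and 14.5 after M/M, and 16.5, 20.7 and 20.4 after Th2 cytokines. Every M/M and Th2 array lay above every control array, while the Th1 array of experiment 3 did not. The differences were 1.21, 1.74 and 1.72 log2 units (SE 0.60), with 95% intervals of −0.10 to 2.51, 0.44 to 3.05 and 0.42 to 3.03 and adjusted p in limma of 0.857, 0.222 and 0.715. Much of their size came from the control of experiment 3: without it they were 0.33, 0.87 and 0.85.

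Grm4 and Grm7, presynaptic receptors of the same subgroup as Grm6, were lower after Th1 cytokines. Grm4 gave 39.1, 38.3 and 30 in the controls against 25.9, 20.4 and 29.0, with no overlap, at −0.52 (SE 0.37). Grm7 gave 16.9, 30.1 and 8.40 against 14.9, 20.9 and 3.4 after Th1 and 12.9, 16.3 and 6.00 after Th2 cytokines, lower in 3 of 3 experiments with both, at −0.67 and −0.59 (SE 0.49). Grm8 was higher in 3 of 3 after Th2 cytokines (0.69, SE 0.48). Grm3 and Grm5, the metabotropic receptors best known in astrocytes, were dim, with signals from 1.10 to 11.5 and from 3.30 to 23.2, and their differences lay between −0.62 and 0.50.

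The GABA-A subunits, which form inhibitory chloride channels, had medians of −0.12, 0.27 and 0.22 after Th1, M/M and Th2 cytokines over 15 genes, 7, 13 and 10 of them above 0. Centred, they came to −0.28, −0.16 and 0.01. Gabrr1, a rho subunit best known in the retina, gave 105, 59.3 and 18.6 in the controls and 101, 120.2 and 63.1 after M/M cytokines. Although it was lower in experiment 1, the M/M difference was 0.91 (SE 0.34, unadjusted p = 0.020 and adjusted p = 0.253 in limma). After Th1 cytokines (114, 120.1 and 30.2) and Th2 cytokines (118, 90.7 and 26.7) it was higher in 3 of 3 experiments, by 0.61 and 0.43. Gabrr3, another rho subunit, stayed under 5 in all 12 arrays and was lower in 3 of 3 after Th1 cytokines (−0.85, SE 0.62) but higher in 3 of 3 after M/M cytokines (0.21).

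Gabrg3 gave 7.62, 8.05 and 3.70 in the controls against 14.0, 17.0 and 4.50 after Th1 cytokines, higher in 3 of 3 at 0.75 (SE 0.46). Gabrb2 gave 38.8, 28.7 and 10.0 against 63.8, 51.3 and 16.6 after M/M cytokines, higher in 3 of 3 at 0.76 (SE 0.37). In both genes the groups overlapped, since experiment 3 was low throughout. Of the 3 glycine receptor subunits, Glra2 was higher in 3 of 3 after Th2 cytokines, with signals of 21.6, 24.2 and 4.60 against 17.5, 12.8 and 1.60, at 0.92 (SE 0.61).

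The nicotinic acetylcholine subunits had 11, 13 and 13 of 15 genes above 0 after Th1, M/M and Th2 cytokines, and medians of 0.19, 0.38 and 0.30. With centred arrays 8, 6 and 8 of 15 were above 0, at medians of 0.03, −0.05 and 0.09. Chrnb2, a subunit of the main neuronal nicotinic receptor, gave 4.88, 7.96 and 7.30 in the controls and 8.51, 11.2 and 18 after Th1 cytokines, with no overlap, at 0.87 (SE 0.82). Its M/M signals of 7.80, 1.0 and 24.6 scattered on both sides of the controls. Chrna9 was higher in 3 of 3 after Th2 cytokines, at 27.3, 25.6 and 8.30 against 24.1, 16.2 and 3.10 (0.75, SE 0.49).

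Of the 5 muscarinic receptors, Chrm2 was lower in 3 of 3 experiments after Th2 cytokines. It gave 6.26, 12.9 and 12.3 in the controls against 5.00, 8.46 and 3.60, at −0.90 (SE 0.45), with overlapping groups. Chrm3, which acts through calcium release, gave 6.63, 7.74 and 43.6 in the controls and 15.6, 14.3 and 57.6 after M/M cytokines, higher in 3 of 3 at 0.84 (SE 0.47). After Th1 (19.3, 18.4 and 25.4) and Th2 cytokines (20.6, 19.3 and 37.4) it was higher in experiments 1 and 2 and lower in experiment 3. Chrm1 was higher in 3 of 3 after Th1 and M/M cytokines (0.30 and 0.72, SE 0.34). The other probe set of each gene went the other way. That of Chrm1 was at −0.32 after Th1 and −0.31 after M/M cytokines. That of Chrm3 was at −0.01, −0.19 and −0.28 after Th1, M/M and Th2 cytokines.

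The adrenergic receptors, which respond to noradrenaline and adrenaline, had no gene above the array median in every control. After M/M cytokines 5 of 6 alpha and both beta receptor genes had a difference above 0, at family medians of 0.60 and 0.61, which were 0.17 and 0.18 with centred arrays. Adra2c, which lowers cyclic AMP, was near the floor of the measurement in the controls, at 1.06, 1.0 and 3.10. It gave 7.29, 1.57 and 3.60 after Th2 cytokines, higher in 3 of 3 experiments at 1.22 (SE 0.88). The Th1 signals were 7.51, 5.57 and 2.50 and the M/M signals 1.06, 5.07 and 14.3.

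Among the dopamine receptors, Drd1, which raises cyclic AMP, was higher with all 3 mixtures in 3 of 3 experiments. It gave 19.9, 16.5 and 5.90 in the controls, 29.7, 22.0 and 9.50 after Th1, 27.6, 27.8 and 13.6 after M/M, and 30.1, 36.8 and 9.30 after Th2 cytokines. The differences were 0.56, 0.81 and 0.80 (SE 0.38) and kept their sign under both scalings, at 0.40, 0.38 and 0.59 with centred arrays. Within each experiment the control was the lowest of the 4 arrays, but across experiments the groups overlapped. The other Drd1 probe sets did not behave in this way, as described below.

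The serotonin receptors had medians of −0.20, 0.15 and −0.10 after Th1, M/M and Th2 cytokines over 13 genes, 4, 10 and 5 of them above 0, and of −0.36, −0.28 and −0.31 with centred arrays. Htr7, a receptor that raises cyclic AMP, gave 13.0, 59.6 and 1.60 in the controls. Its signals were 8.59, 11 and 1.30 after Th1, 9.75, 9.33 and 1.5 after M/M, and 12.4, 17.4 and 1.2 after Th2 cytokines, lower than the control in 3 of 3 experiments with each mixture. The differences of −1.11, −1.06 and −0.75 (SE 0.55) rested largely on the control of experiment 2, without which they were −0.45, −0.40 and −0.09.

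Htr6, which also raises cyclic AMP, gave 38.7, 83.3 and 28.6 in the controls and 34, 24.5 and 13.9 after Th1 cytokines, lower in 3 of 3 experiments at −1.0 (SE 0.42, unadjusted p = 0.034 and adjusted p = 0.857 in limma). After Th2 cytokines it gave 34.3, 35.7 and 18.1, lower in 3 of 3 at −0.69, and after M/M cytokines 26.8, 31.4 and 37.1, lower in 2 of 3 at −0.52. Without the control of experiment 2 the differences were −0.63 (Th1), −0.15 (M/M) and −0.32 (Th2). Htr5a gave 27.5, 21.5 and 22.9 in the controls against 20.8, 18.4 and 14.2 after Th2 cytokines, with no overlap, at −0.44 (SE 0.41). Htr2a was lower in 3 of 3 after M/M cytokines, mainly in experiment 3, where it gave 3.90 against 12.7, at −0.59 (SE 0.45). Htr5b scattered most, with control signals of 9.84, 1.31 and 30.6, and was higher in 3 of 3 after M/M cytokines at 0.74 (SE 0.86).

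**Figure D3:**
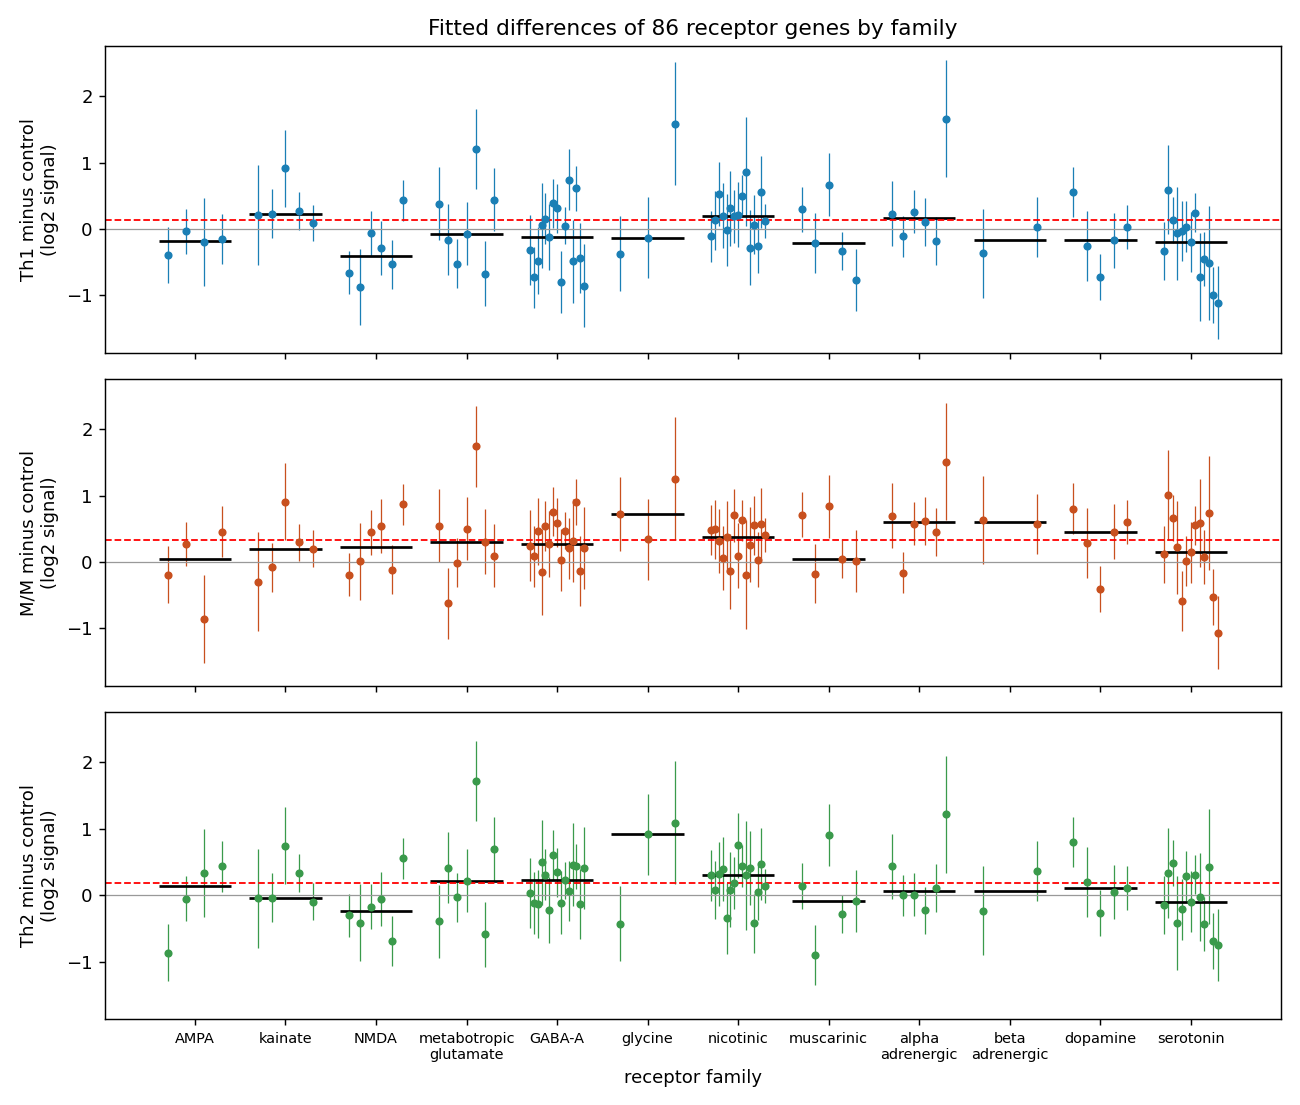
Fitted log2 difference from control for 86 receptor genes by family, with the Th1, M/M and Th2 mixtures in separate panels; points are genes, bars 1 SE, black lines family medians and the red dashed line the median of all probe sets tested. No gene passed the test, and the AMPA, NMDA, muscarinic and serotonin medians lie below the red line in each panel, at −0.17, −0.41, −0.21 and −0.20 after Th1 cytokines.

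**Figure D4:**
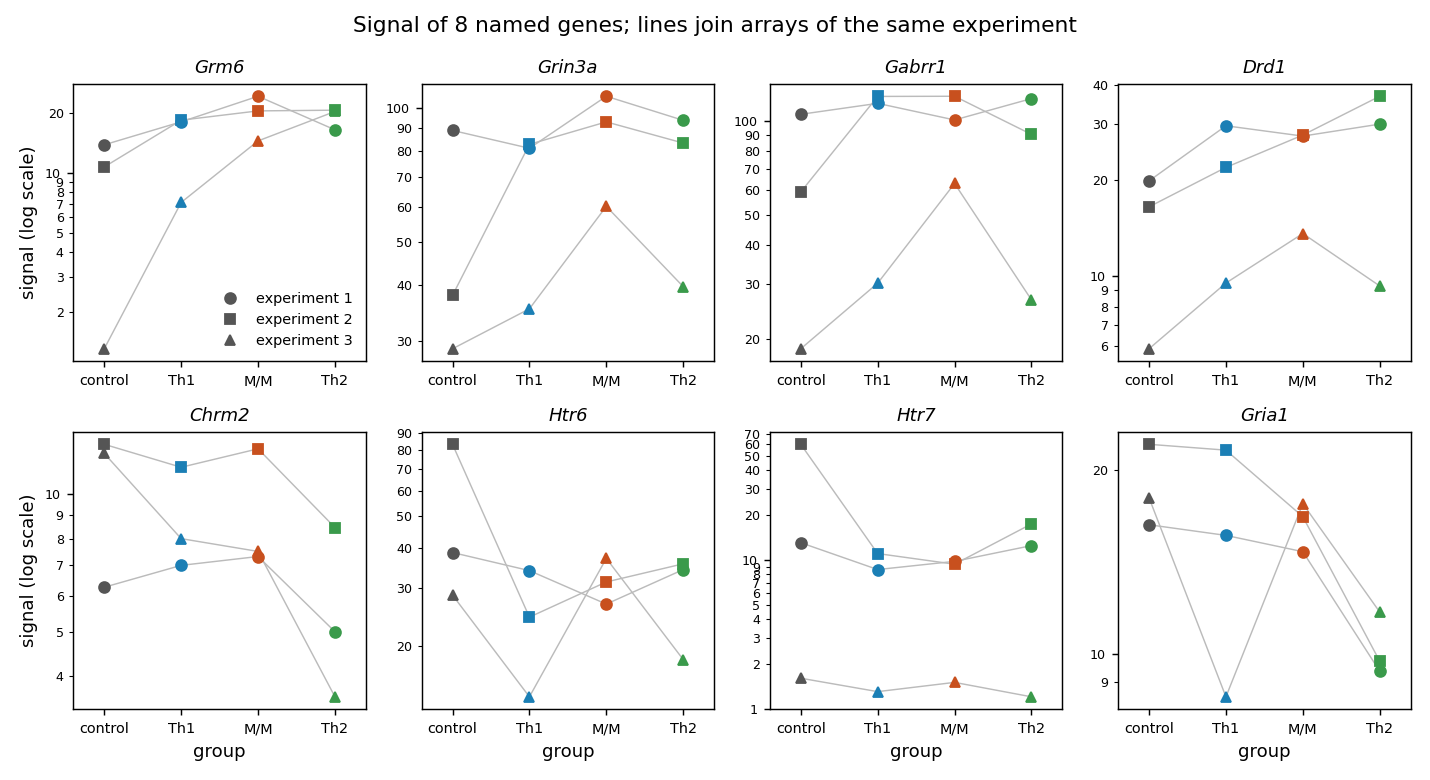
Signal on log axes of 8 named genes in the 12 arrays, with lines joining the arrays of the same experiment. Grm6 is higher than control with each mixture in each experiment, most steeply in experiment 3, where the control was 1.30, while Htr7 and Htr6 have their highest value in the control of experiment 2, at 59.6 and 83.3.

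Direct comparison of the mixtures with each other gave no call among the 132 probe sets either, nor among all probe sets (0% in each case by limma at adjusted p under 0.05). At an unadjusted p under 0.05 there were 2 probe sets for Th1 minus M/M, 1 for Th1 minus Th2 and 4 for M/M minus Th2. These were 1.52%, 0.758% and 3.03% of the 132, against 2.89%, 1.85% and 3.92% of all probe sets. By their brightest probe set, 2 genes were among these, Adra2a and Chrnb4, both higher after M/M than after Th2 cytokines. Adra2a gave 66.3, 100.2 and 23.5 after M/M and 37.7, 56.1 and 12.6 after Th2 cytokines, a difference of 0.85 (SE 0.36, adjusted p = 0.998 in limma). Chrnb4 gave 21.4, 28.5 and 42.1 against 19.4, 8.04 and 21.5, a difference of 0.98 (SE 0.44). In both genes the M/M array was the higher in each experiment. The other probe set of Chrnb4 differed in the opposite direction, by −0.20. These genes were singled out after their values were seen. The median over the 87 genes was −0.39 for Th1 minus M/M and 0.22 for M/M minus Th2, beside −0.21 and 0.13 over all probe sets.

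The study's methods screened for genes by a mean change of more than 2-fold together with a lenient analysis of variance, without adjustment. Here the cut was set on the mean log2 difference, with 1 analysis of variance over the 4 groups for all mixtures. The study marked its p-values for each mixture, so the screens are not the same. By such criteria 1 of the 132 probe sets was selected after Th1 cytokines, 1 after M/M and 2 after Th2 cytokines. These were 0.758%, 0.758% and 1.52% of the 132, against 2.21%, 3.33% and 2.33% of all probe sets. None of those selected was the brightest probe set of its gene. After Th1 and M/M cytokines it was a dim probe set of Drd1, at 2.04, 5.64 and 3.10 in the controls, 1.13, 1.56 and 0.70 after Th1 and 1.0, 1.45 and 1.2 after M/M cytokines. After Th2 cytokines the selected probe sets were of Glra1, at 4.54, 3.54 and 2.00 in the controls against 2.23, 1.41 and 0.40, and of Adra2a, at 9.43, 9.93 and 5.20 against 4.01, 1.79 and 3.4. All 4 selections were downward, and no signal in these comparisons exceeded 9.93.

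How far probe sets of the same gene went together was examined for the 33 genes that had several. All of a gene's probe sets had the same sign for 14 genes after Th1, 23 after M/M and 13 after Th2 cytokines, and disagreed for 19, 10 and 20. The range between a gene's probe sets had a median of 0.75, 0.45 and 0.58 log2 units. Drd1 was the widest after M/M cytokines: its brightest probe set was at 0.81 and the others were at −0.28 and −1.45. Gria3 followed, at −0.86 for the brightest probe set and 0.75 for the other. Grin1 was at −0.19 by its brightest probe set and at 1.17 by another (unadjusted p = 0.037), and Grin2d was at −0.11 against 1.24 (unadjusted p = 0.043). After M/M cytokines Adra2a, Chrm1, Chrm3, Gabra5, Glra1 and Grm7 disagreed as well. The genes in disagreement both after Th1 and after Th2 cytokines were Chrm1, Chrm3, Chrna7, Drd1, Gabra3, Gabra4, Glra1, Gria2, Grin1, Grin2c, Grin2d, Htr2a, Htr2c and Htr4.

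Grin3a had 3 probe sets, at 0.87, 0.97 and 0.84 after M/M cytokines, but after Th2 cytokines they gave 0.56, −0.01 and 1.36. Both probe sets of Drd3, Chrm2, Htr7 and Grik4 had the same sign with each mixture: Grik4 at 0.27 and 0.85 after Th1, Htr7 at −1.11 and −0.63 after Th1 and −1.06 and −0.09 after M/M, and Chrm2 at −0.90 and −0.03 after Th2 cytokines. Probe sets of one gene read the same RNA and can match different transcripts, so they are no replicates of a gene's change.

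**Figure D5:**
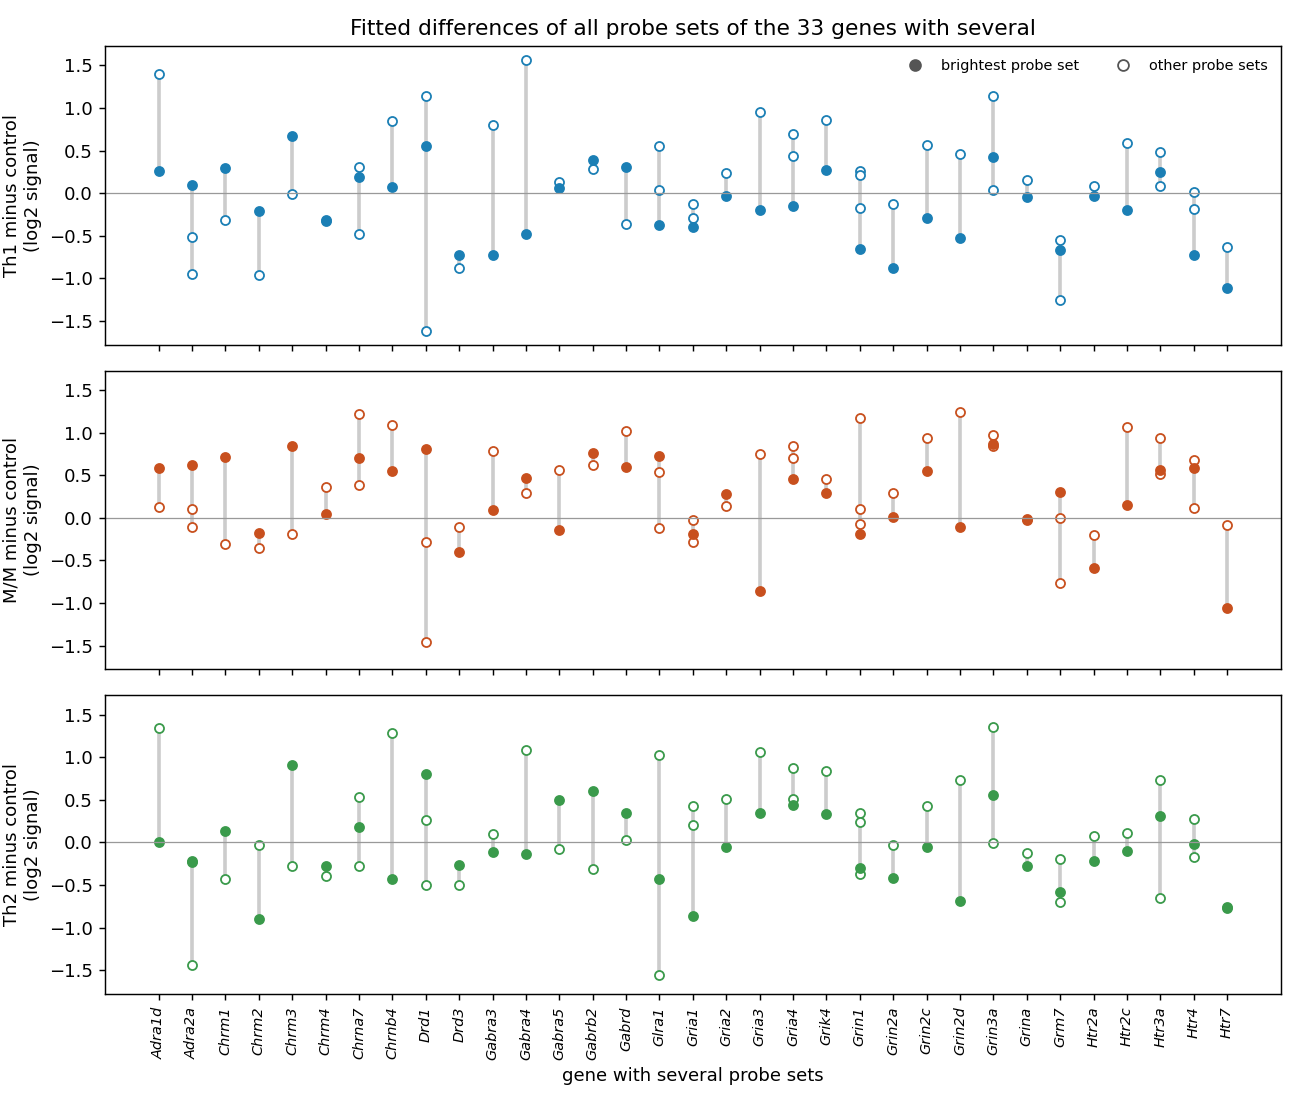
Fitted log2 difference from control of every probe set of the 33 genes with several, by mixture; filled points are the brightest probe set, open points the others, and grey bars join probe sets of the same gene. Bars cross 0 for 19 genes after Th1, 10 after M/M and 20 after Th2 cytokines, and the bar of Drd1 after M/M cytokines runs from −1.45 to 0.81.

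Genes that make, take up and break down transmitters were set beside the receptors. Of 34 listed, 28 were measured, 6 of them above the array median in every control. Glul, the glutamine synthetase of astrocytes, and Slc1a3, the glial glutamate transporter, were bright, at 3453, 3874 and 1246 and at 1310.1, 652 and 1467 in the controls. None of the 28 passed the test with any mixture. Higher in 3 of 3 experiments were 7 of 28 after Th1, 9 of 28 after M/M and 9 of 28 after Th2 cytokines. Of all probe sets 14%, 32% and 25% were. Their medians were 0.21, 0.32 and 0.19, and 0.05, −0.10 and −0.03 with centred arrays. Gad1, which makes GABA, gave 161, 95.7 and 38 in the controls. It was higher in 3 of 3 with each mixture, by 0.61, 0.71 and 0.90 log2 units (SE 0.27). Its adjusted p in limma was 0.857, 0.256 and 0.642. Dbh, Slc6a13 and Chat were also higher in 3 of 3 with each mixture, by 0.12 to 1.68. Of these, Dbh was near the floor in the controls, at 3.46, 1.38 and 1.40.

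Markers of cell types were used to check the label of the cultures as glial. Those of astrocytes (6 of 7 measured) and oligodendrocytes (6 of 7) had median control percentiles of 93.6 and 93.9 within the array, and those of microglia (6 of 7) of 69.5. Fibroblast markers (4 of 4 measured) stood at 88 and all lay above the array median in every control, with Col1a1 at 1682, 217 and 833, although the label names glia alone. Markers of neurons (11 of 14 measured) stood at 46.9, with 3 of them, Gap43, Map2 and Syn1, above the array median in every control, while others were dim, such as Syn2 (13.0, 14.5 and 2.30) and Nefh (22.3, 28.5 and 14.0). By antibody staining for cell markers the study reported no neurons in its cultures, which is a measure of protein and not of RNA. The 87 receptor-list genes stood at 36.6. No neuronal marker passed the test, with median differences of 0.12, 0.48 and 0.07, and −0.04, 0.05 and −0.14 with centred arrays. One marker did, Cd14 of microglia, by 2.55 log2 units after M/M cytokines (adjusted p = 0.049 in limma). That call was lost without the replicate block, without the variance trend, with centred or quantile-normalized arrays, without experiment 2, without the control of experiment 2 or 3 and without any of the M/M arrays, since no probe set was then called after M/M cytokines. The other microglia markers measured lay between −0.22 and 0.64 after M/M cytokines. With centred arrays the median of the microglia markers was 0.05 after M/M cytokines. The part of the cell types in the receptor signals was not tested.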

How the data were processed

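RNA of 12 cultures was hybridized to 1 array each. The authors calculated model-based expression values with dChip, and the deposited values are linear signal intensity per probe set. How arrays were scaled to each other is not given in the sources used here. From these, 59 array control probe sets were left out. Of the 8740 others, 7006 had 1 platform symbol, 308 several and 1426 none, and all 132 probe sets of the list had the symbol RefSeq gives. Values below 0.1 were set to 0.1 and log2 was taken. limma 3.58.1 (R 4.3.3) was fitted to all 12 arrays with group and experiment as terms and a variance trend (6 residual degrees of freedom, prior 6.94), two-sided, with Benjamini-Hochberg adjustment over all 8740.

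Experiments were paired by the shared code in the sample titles: deviations from group means correlated at 0.439 to 0.708 within an experiment (18 pairs) and at −0.625 to 0.357 between experiments (36 pairs). The study's methods name 3 separate experiments. With experiment as a term, p-values rest on how the differences between groups varied across the 3 experiments, not on the spread in level between experiments. The number of arrays limits the precision.

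Genes described with values were those above the array median in 3 of 3 controls, the 6 highest and 6 lowest per mixture among those going one way in 3 of 3 experiments, those whose probe sets disagree, and rule matches that are no receptor gene. Grm3 and Grm5 were added after their values were seen. Single genes named from the transmitter and marker lists were not chosen by a set rule. The members and lists were chosen with earlier results of these data known. The fit was tested on simulated data. Alternatives were the block left out or random, quantile normalization, centring on array medians, floors of 1 or 16 added to every value, the dimmest 25% left out, no variance trend, each experiment or array left out, and the screening criteria of the methods (over 2-fold and analysis of variance p under 0.2). No sequence was used.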

Additional observations from a re-analysis of the deposited data

How the results depend on the processing

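No member probe set was called in any of the 6 comparisons under any limma alternative, the fit with no replicate block (0 calls in each comparison) and the random block included. Criteria modelled on the screen of the methods gave 1, 1 and 2 probe sets with Th1, M/M and Th2 cytokines. The median over the 87 genes moved with the scaling of the arrays: with Th1 cytokines from −0.03 to −0.19 (centred) and −0.15 (quantile), with M/M cytokines from 0.32 to −0.11 (centred) and −0.035 (quantile), and with Th2 cytokines from 0.08 to −0.13 (centred) and −0.18 (quantile). Leaving out experiments or single arrays gave −0.15 to 0.17 with Th1, 0.18 to 0.47 with M/M and −0.01 to 0.14 with Th2 cytokines. The count of genes above the array median in every control was 10. It was 7 with the mean of all probe sets of a gene and 9 without Grina. With 1 control array left out, which cannot lower the count, it was 11 to 16 (16 without the control of experiment 1, 15 without that of experiment 3). Of 2319 alternative values for the 34 named genes, 70 moved by more than the spread between replicates. Many of the 2319 could not move, so this share is no measure of stability. In this balanced design the block and the variance trend do not alter a difference. A treated array left out does not alter the differences of the other mixtures. Centring moved 19 of 102 values and quantile normalization 21 of 102. With the dimmest 25% left out, 59 of the 87 genes and 76 of the 132 probe sets were tested. Intervals within 2-fold were reached for 13 to 19 genes, and the part of low signal in their width was not tested.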
